A study of Mus musculus with 8 samples.

Results

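The response of RAW264.7 cells to lipopolysaccharide (LPS) was described from 4 of 8 libraries. RAW264.7 is a mouse macrophage-like line transformed with Abelson leukaemia virus, and the labels call the cells wild type. Both untreated libraries were compared with both libraries of cells given LPS at 50 ng/mL for 12 h. The labels give no time for the untreated libraries, so it is not known whether they were matched at 12 h. The other 4 libraries came from cells given antibodies against CD36 (1:100, 12 h) and from cells given LPS plus anti-CD36 for 12 h, for which the labels give no doses. A control antibody of another specificity was not analysed here. The table held 1 value per gene and library, so the data were read as bulk RNA sequencing although the labels also name a 10x Genomics platform. All 10289 of 10639 genes with an FPKM (fragments per kilobase of transcript, scaled to library depth) of at least 1 in at least 2 of the 8 libraries were tested. Cytokines, chemokines, interferon-stimulated genes and the nitric oxide and prostaglandin enzymes were tested with the rest but, apart from a few that a list holds, are not named here, so that other programmes could be described.

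LPS is the outer membrane lipid of gram-negative bacteria. Macrophages sense it through TLR4 with CD14 and MD-2, and the adaptors MyD88 and TRIF then activate NF-kB, AP-1 and IRF factors. Beyond the inflammatory genes, LPS is known to slow division of macrophage lines, to shift amino acid, iron and mitochondrial metabolism, and to remodel the cell surface and the secreted proteins. FPKM is a level per transcript length, and the differences below are group differences of log2(FPKM + 1), where changes at low levels come out smaller than they are. A gene was called at an adjusted p under 0.05 (limma, Benjamini-Hochberg over all 10289 genes), and the words rose and fell are used of called genes alone. Each group had n = 2 libraries, pairs of values are replicates 1 and 2, and the number after ± is the standard error (SE) of the difference.

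The 4 libraries held 55600000 to 71700000 reads by a depth recovered from the steps of the lowest values. With LPS, 5614 genes (54.6%) were called, of which 1754 (17.0%) were higher and 3860 (37.5%) lower. Of these, 606 rose and 1106 fell by at least 1. The median difference of all genes was -0.19, and it was 0.00 when libraries were scaled by median-ratio size factors, -0.04 after quantile normalization and -0.38 with mitochondrial genes left out. That last setting also scaled each library to the same total of the remaining FPKM. Before it, FPKM totals were 293686 and 280146 untreated and 332904 and 323905 with LPS. The part of this scaling in the shift was not tested. With size factors 2644 genes were higher and 2733 lower, after quantile normalization 2444 and 3037, and with mitochondrial genes left out 1218 and 4914. Counts with size factors therefore stand beside the list counts below. Each list count is to be read beside the 17.0% higher and 37.5% lower of all tested genes. Differences followed exon length weakly (Spearman correlation -0.16 across genes), with a median exon length of 3760 bp for rises and 4840 bp for falls. The untreated replicates also differed from each other by length (-0.48), as did the LPS replicates (-0.25), and the part of length in the falls of long genes was not tested. The untreated and LPS values did not overlap in 85.1% of all tested genes, so a gap between the groups is the usual case, and the genes named for the largest changes were required to have one. Where a list had 1 or 2 calls in a direction, leaving out 1 library moved some of these counts to between 0 and 5. Larger list counts that moved by over 1.5 times are given beside the list. Nothing in the labels says that replicates were separate cultures, so p-values measure the spread between libraries, which may be technical.

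**Figure D1:**
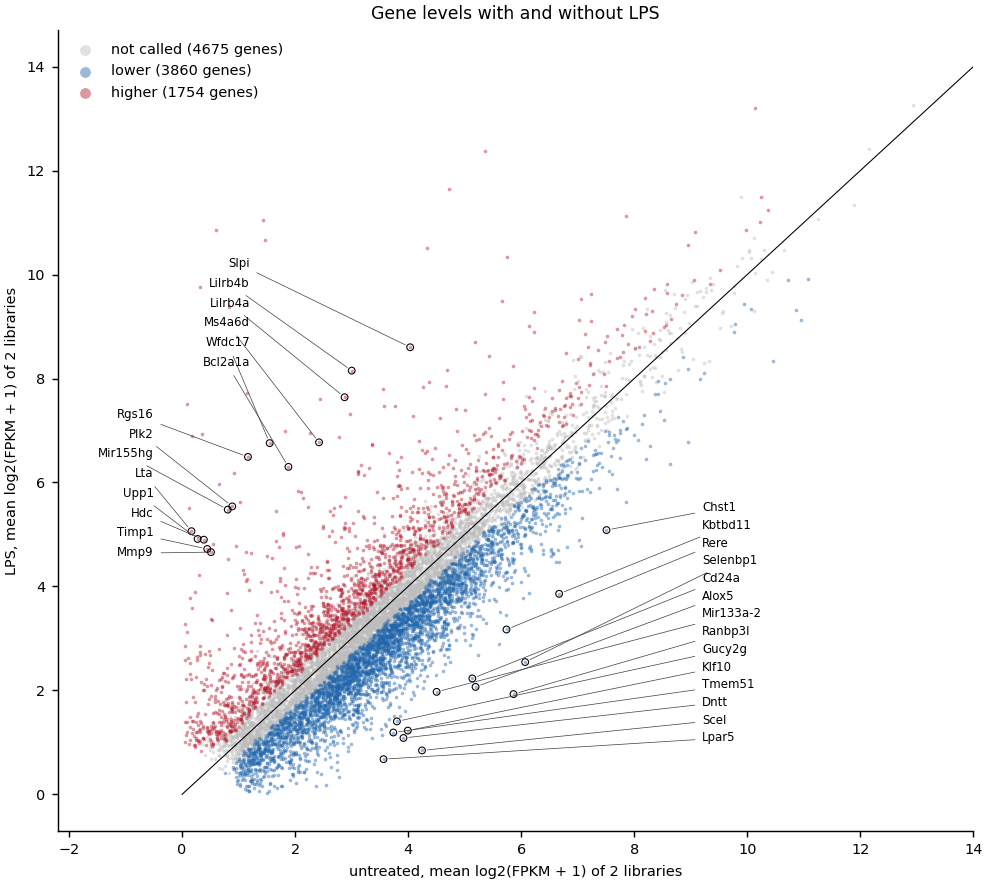
Mean log2(FPKM + 1) of both untreated libraries (x axis) against both LPS libraries (y axis), 1 point per tested gene, with the largest named rises and falls labelled. The cloud below the diagonal holds 3860 genes called lower and the cloud above it 1754 called higher.

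Promoters of 6 genes are shown first because the groups they belong to, DNA replication, uridine breakdown, urokinase binding, autophagy receptors and peptide supply, recur in the results. A single window does not stand for its group. An ISRE match was in 3 of 13 windows of the immunoproteasome and peptide supply list. An NF-kB match was in 3 of 34 windows of the autophagy list. Each is the RefSeq window from 250 bases before to 50 bases after the start (GRCm38.p6), 5′ to 3′ on the gene's strand, with the motif match in capitals. Mcm7 (chr5:138171834-138172133, minus strand) and Cdc6 (chr11:98907901-98908200, plus strand) hold an E2F match, and both genes fell. Only the named motif is marked in each window. Of the other motifs searched, the Mcm7 window also holds 1 NF-kB match and 3 NF-Y matches (CCAAT). The Plaur window also holds 1 C/EBP match (TTGCNNAA). Upp1 (chr11:9117758-9118057, plus strand) and Plaur (chr7:24462233-24462532, plus strand) hold an AP-1 match, Sqstm1 (chr11:50210771-50211070, minus strand) an NF-kB match and Psme1 (chr14:55578244-55578543, plus strand) an ISRE match, and these 4 genes rose.
Mcm7: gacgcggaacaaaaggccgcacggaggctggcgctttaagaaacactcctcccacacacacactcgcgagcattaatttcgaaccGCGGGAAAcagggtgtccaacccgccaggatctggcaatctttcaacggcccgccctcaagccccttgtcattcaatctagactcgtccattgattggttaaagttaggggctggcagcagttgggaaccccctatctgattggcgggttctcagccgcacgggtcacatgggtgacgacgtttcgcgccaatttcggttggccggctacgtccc
Cdc6: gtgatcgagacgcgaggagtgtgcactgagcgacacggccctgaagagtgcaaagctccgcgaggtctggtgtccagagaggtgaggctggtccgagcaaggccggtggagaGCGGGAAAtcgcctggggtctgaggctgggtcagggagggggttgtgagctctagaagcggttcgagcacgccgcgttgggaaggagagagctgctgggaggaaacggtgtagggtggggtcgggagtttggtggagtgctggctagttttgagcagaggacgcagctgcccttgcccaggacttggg
Upp1: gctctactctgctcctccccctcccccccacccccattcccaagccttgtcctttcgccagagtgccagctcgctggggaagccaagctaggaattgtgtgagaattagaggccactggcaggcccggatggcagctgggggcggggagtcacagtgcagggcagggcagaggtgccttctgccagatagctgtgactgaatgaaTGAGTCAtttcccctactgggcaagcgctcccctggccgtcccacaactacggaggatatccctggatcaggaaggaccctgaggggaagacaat
Plaur: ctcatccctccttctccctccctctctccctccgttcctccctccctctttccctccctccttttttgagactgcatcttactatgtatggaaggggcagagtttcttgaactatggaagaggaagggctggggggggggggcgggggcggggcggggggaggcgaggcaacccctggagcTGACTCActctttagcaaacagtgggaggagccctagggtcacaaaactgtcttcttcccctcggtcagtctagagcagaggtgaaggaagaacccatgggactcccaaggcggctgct
Sqstm1: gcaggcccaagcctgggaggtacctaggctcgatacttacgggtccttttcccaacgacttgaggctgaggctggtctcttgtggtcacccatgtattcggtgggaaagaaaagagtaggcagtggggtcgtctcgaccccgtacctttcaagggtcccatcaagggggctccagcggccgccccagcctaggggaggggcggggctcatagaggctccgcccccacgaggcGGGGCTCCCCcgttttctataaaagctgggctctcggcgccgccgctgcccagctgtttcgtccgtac
Psme1: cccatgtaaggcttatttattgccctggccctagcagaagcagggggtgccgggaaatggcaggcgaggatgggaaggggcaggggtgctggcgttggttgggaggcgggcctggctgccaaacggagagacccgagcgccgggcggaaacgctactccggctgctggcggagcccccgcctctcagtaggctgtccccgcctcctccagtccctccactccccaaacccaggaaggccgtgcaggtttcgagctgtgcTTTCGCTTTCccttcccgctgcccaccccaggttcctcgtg

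Motifs were searched on both strands in the 8071 tested genes with such a window, and 1635 of these genes have more than 1 window in the table, of which the first was used. The E2F motif, searched as TTTGGCGC or TTTCCCGC, was in 3.57% of all windows and in 12 of 32 windows of DNA replication genes (37.5%). These 12 were Mcm3, Mcm5, Mcm6, Mcm7, Cdc6, Cdt1, Gins3, Pola1, Pold1, Pold3, Pole2 and Rfc3, named by their match alone. All but Pola1 were called lower, as were 36 of all 40 tested replication genes, so the match did not set these genes apart. In genes that rose by at least 1 the E2F share was 0.922%, and in genes that fell by at least 1 it was 5.94%. The AP-1 motif TGANTCA was in 4.71% of all windows, 10.8% of rises and 5.26% of falls, and in 6 of 12 windows of coagulation and fibrinolysis genes. These 6 included the risers F3, Procr and Plaur, the faller Serpinb8 and the uncalled F11r and Anxa2. The ISRE motif GAAANNGAAA was in 3.16% of all windows, 9.22% of rises and 2.69% of falls, and the NF-kB motif in 4.93%, 8.53% and 5.38%. A match describes letters in this window and does not show a bound factor.

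The largest rises outside the usual inflammatory genes were in a regulator of G protein signalling, inhibitory receptors, protease inhibitors and single metabolic enzymes. Rgs16, which speeds GTP hydrolysis by G-alpha subunits, had an FPKM of 1.40 and 1.10 in the untreated libraries and 89.1 and 88.8 with LPS, a log2 difference of 5.33 ± 0.12 (SE, adjusted p = 2.9e-07). Both LPS libraries lay far above both untreated ones. Wfdc17, a small secreted protein of the whey acidic protein family, went from 2.80 and 1.26 to 107 and 108 (5.21 ± 0.30, adjusted p = 1.6e-05). Slpi, a secreted inhibitor of leukocyte elastase, went from 18.8 and 12.6 to 413 and 363 (4.57 ± 0.35). Lilrb4a and Lilrb4b, inhibitory immunoglobulin-like receptors, rose by 4.76 and 5.15, but they are near-identical paralogs whose reads the counting could split, so each value is uncertain. The same holds for Bcl2a1a (4.42), a survival protein of the BCL2 family.

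Upp1, uridine phosphorylase, was at 0.220 and 0.199 without LPS, from 24 and 28 reads, and at 28.6 and 29.7 with it (4.64 ± 0.12, adjusted p = 4.6e-07). Hdc, which makes histamine from histidine, went from 0.253 and 0.360 to 30.4 and 27.3 (4.51 ± 0.10). Mir155hg, the host transcript of miR-155, went from 0.865 and 0.642 to 41.6 and 45.6 (4.67 ± 0.17). The untreated libraries were under an FPKM of 1 for these 3 genes, and the gap between groups was part of the naming rule. Further rises were in the lymphotoxin gene Lta, a cytokine that the list of usual genes did not hold (4.90), the polo-like kinase Plk2 (4.65), the membrane protein Ms4a6d (4.35), the metalloproteinase inhibitor Timp1 (4.28) and the gelatinase Mmp9 (4.15).

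Large falls were smaller in size than the large rises. After Ranbp3l (-3.94), Selenbp1 (-3.53), Scel (-3.40) and Alox5 (-3.13) came Cd24a, a lipid-anchored sialoglycoprotein, which went from 32.4 and 36.0 to 3.83 and 3.55 (-2.91 ± 0.15, adjusted p = 1e-05). Lpar5, a receptor for lysophosphatidic acid, went from 11.7 and 10.00 to 0.462 and 0.748 (-2.89 ± 0.14). Dntt, the terminal transferase that lymphocyte precursors use in receptor gene joining, was at 14.7 and 13.5 in untreated cells and 1.30 and 0.954 with LPS (-2.83 ± 0.13). The LPS values of these 3 genes were all below 4, and the gap between groups was part of the naming rule. Klf10, a zinc finger factor induced by TGF-beta (-2.77), Kbtbd11, a kelch and BTB domain protein (-2.81), Rere, a nuclear corepressor (-2.57), Tmem51 (-2.55), Chst1, a keratan sulfate sulfotransferase (-2.43), and Gucy2g, a membrane guanylate cyclase (-2.40), fell as well. The microRNA gene Mir133a-2 (-2.53) had 118 and 172 reads without LPS and 10 and 33 with it, over 104 bp.

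**Figure D2:**
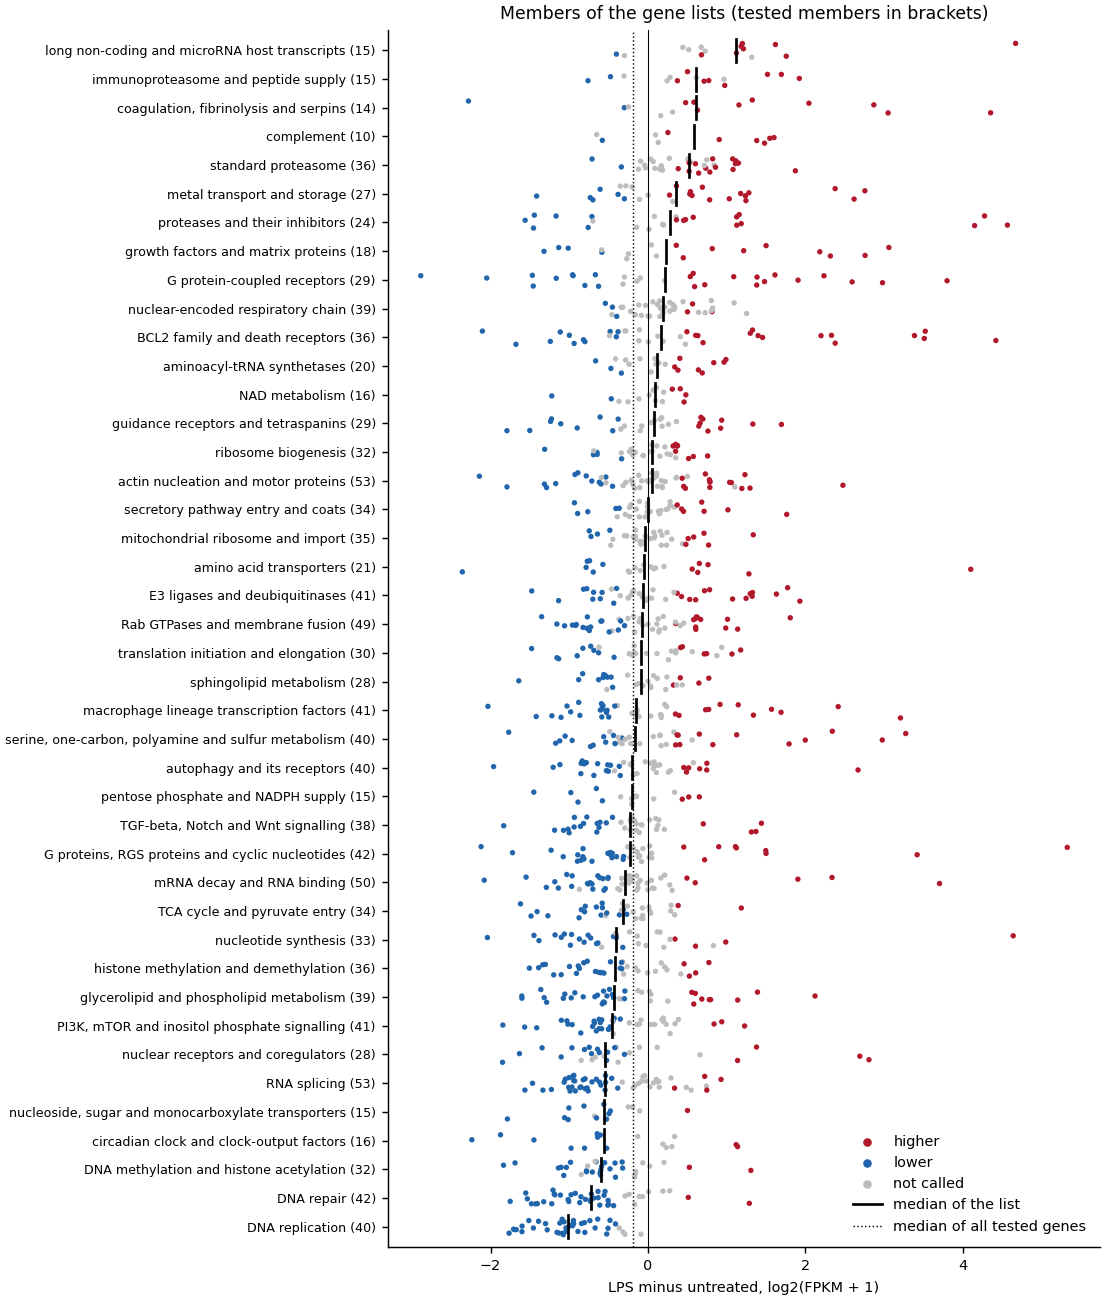
Differences of the tested members of 42 gene lists (x axis, LPS minus untreated on the log2(FPKM + 1) scale), 1 point per member, with the list median as a bar and the median of all genes (-0.19) as a dotted line. DNA replication lies at the bottom with a median of -1.02, and the non-coding, immunoproteasome, coagulation, complement and proteasome lists lie at the top.

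DNA replication was the list with the lowest median. Of 40 tested members, 36 were called lower and 0 higher, against 37.5% and 17.0% of all genes, with a median of -1.02 (32 lower and 0 higher with size factors). Mcm7, a subunit of the replicative helicase, had an FPKM of 85.6 and 79.9 untreated and 22.2 and 25.2 with LPS (-1.77 ± 0.11, adjusted p = 2.5e-05). Cdc6, which loads that helicase at origins, went from 14.8 and 15.4 to 3.81 and 4.05 (-1.71 ± 0.10, adjusted p = 1.6e-05). Chaf1a, a chaperone that deposits histones behind the fork (-1.70), Pole, the leading strand polymerase (-1.67), Lig1, which seals lagging strand fragments (-1.60), and Mcm10, a helicase activator (-1.60), also fell. Both LPS libraries were below both untreated libraries in each of these 6 genes, where 85.1% of all genes have groups that do not overlap.

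DNA repair followed, with 32 of 42 lower and 2 higher (median -0.72, 29 and 2 with size factors). The nuclease Exo1 (-1.75), the uracil glycosylase Ung (-1.55), the recombination helicase Rad54l (-1.53) and the checkpoint kinase Chek2 (-1.48) fell. Of 33 genes of nucleotide synthesis, 18 were lower and 4 higher (median -0.41, 13 and 8 with size factors, and rises of 1 without LPS replicate 1 or 2 and 2 without untreated replicate 1 or 2). Cad, which starts pyrimidine synthesis, went from 53.7 and 50.3 to 18.1 and 18.7 (-1.45 ± 0.12, adjusted p = 8.9e-05). Both its LPS values were below both untreated values, while Upp1, on the breakdown side of uridine, rose. Adssl1, an adenylosuccinate synthase, went from 37.3 and 30.6 to 7.58 and 7.34 (-2.04 ± 0.15), and Pfas, an enzyme of purine synthesis, changed by -1.39.

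Chromatin enzymes fell more often than they rose, as did all tested genes (37.5% lower and 17.0% higher). With size factors all tested genes had 2733 lower and 2644 higher. Of 32 genes for DNA methylation and histone acetylation, 21 were lower and 2 higher (median -0.60, 14 and 3 with size factors), and the falls numbered 12 without untreated replicate 2 and 11 without LPS replicate 1. Dnmt1, the maintenance methyltransferase, went from 87.7 and 93.9 to 23.6 and 25.8 (-1.84 ± 0.18, adjusted p = 0.00015), and its cofactor Uhrf1 from 81.6 and 84.0 to 25.4 and 24.6 (-1.69 ± 0.10, adjusted p = 1.8e-05). Tet2, which oxidizes methylcytosine, moved the other way, from 1.70 and 2.49 to 6.42 and 6.78 (1.31 ± 0.14, adjusted p = 0.00025). Of 36 histone methyltransferases and demethylases, 21 were lower and 4 higher (median -0.41, 13 and 6 with size factors), among the falls the demethylases Kdm4b (-1.51), Kdm2a (-1.39) and Kdm3b (-1.30) and the methyltransferase Setd1b (-1.34). The falls of that list numbered 12 without untreated replicate 2 and 11 without LPS replicate 1, and the rises 1 without untreated replicate 1 or LPS replicate 1 or 2.

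RNA splicing genes were lower in 31 of 53 and higher in 4 (median -0.55, 22 and 8 with size factors), and the falls numbered 19 without LPS replicate 1 and the rises 7 without anti-CD36 replicate 1 or 2. Srsf6, a serine and arginine rich splicing factor, went from 58.0 and 58.4 to 18.1 and 19.99 (-1.56 ± 0.10, adjusted p = 2.8e-05), and Hnrnpm from 51.5 and 57.2 to 19.9 and 21.9 (-1.34 ± 0.12, adjusted p = 9.9e-05). The splicing regulator Srsf1 (-1.23) and Hnrnpl (-1.05) fell too. Among 50 genes of mRNA decay and RNA binding, 20 were lower, close to the 37.5% of all genes, and 5 higher (median -0.29, 14 and 7 with size factors), and the falls numbered 11 without LPS replicate 1 and the rises 3 without untreated replicate 1 or LPS replicate 1. The Zfp36 family moved in both directions. Zfp36, which recruits deadenylases to AU-rich messages, went from 11.9 and 13.3 to 170.1 and 183 (3.70 ± 0.23, adjusted p = 2.3e-05), while its relative Zfp36l2 went from 38.3 and 43.1 to 8.47 and 9.22 (-2.08 ± 0.12, adjusted p = 1.9e-05). The endonucleases Zc3h12a (2.34) and Zc3h12c (1.90) rose, and Khsrp, which promotes decay of AU-rich messages, fell (-1.55). Of 15 long non-coding and microRNA host transcripts, 8 rose and 1 fell, with a median of 1.12 (13 and 0 with size factors, and 13 higher without anti-CD36 replicate 1 or replicate 2). Malat1, a nuclear-retained transcript, went from 30.1 and 40.4 to 130.4 and 110.4 (1.76 ± 0.27), and Mir22hg, the host of miR-22, changed by 1.62 ± 0.24.

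Proteasome genes were called higher more often than lower. Of 36 subunits of the standard proteasome, 15 were higher and 2 lower, with a median of 0.52 (22 and 0 with size factors). The rises numbered 9 without untreated replicate 2, 8 without LPS replicate 1 and 9 without LPS replicate 2. Psma6, an alpha ring subunit, went from 158 and 143 to 574 and 530.2 (1.87 ± 0.19, adjusted p = 0.00021), and the lid subunits Psmd11 and Psmd8 changed by 1.15 ± 0.11 and 1.11 ± 0.13. Of 15 genes of the immunoproteasome and peptide supply, 8 rose and 2 fell (median 0.61, 11 and 1 with size factors, and rises of 5 without LPS replicate 1). Psmb10, an inducible catalytic subunit, went from 27.8 and 19.7 to 80.6 and 75.6 (1.69 ± 0.32, adjusted p = 0.0033). Psme2, a subunit of the interferon-inducible activator ring, went from 59.1 and 43.1 to 201 and 188 (1.92 ± 0.34, adjusted p = 0.0024), and its partner Psme1 from 66.5 and 60.9 to 131 and 121 (0.98 ± 0.13, adjusted p = 0.00055). As ratios within a library, which no scaling changes, Psmb10 over the constitutive subunit Psmb7 was 0.721 and 0.634 untreated and 1.22 and 1.24 with LPS. The ratio of Psme2 to Psme3, the subunit of the nuclear activator, was 0.546 and 0.379 untreated and 3.01 and 2.76 with LPS. In the same list Calr, a chaperone of class I folding, fell (-0.76 ± 0.16).

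Polyamine, sulfur amino acid and one-carbon genes moved in both directions, 12 of 40 up and 12 down (median -0.16, 16 and 7 with size factors, and 8 and 19 with mitochondrial genes left out). The rises numbered 6 without untreated replicate 2 and 6 without LPS replicate 2, and the falls 7 without LPS replicate 1 or 2 and 19 without anti-CD36 replicate 1 or 2. Odc1, ornithine decarboxylase and the entry enzyme of polyamine synthesis, had an FPKM of 237 and 223 untreated and 2259.9 and 2207 with LPS, 9.71 times the untreated mean (3.27 ± 0.16, adjusted p = 9.3e-06). Srm, spermidine synthase and the next enzyme of the pathway, was not called, and the ratio of Odc1 to Srm was 1.92 and 2.00 untreated and 23.2 and 23.5 with LPS. Sat1, which acetylates polyamines for export, went from 46.9 and 34.05 to 214 and 199.6 (2.34 ± 0.34, adjusted p = 0.00091). Mat2a, which makes the methyl donor S-adenosylmethionine, went from 44.6 and 45.5 to 12.5 and 12.5 (-1.77 ± 0.10, adjusted p = 1.6e-05). Cth, which makes cysteine from cystathionine, went from 1.36 and 1.04 to 15.9 and 16.6 (2.98 ± 0.15), Gch1, the first enzyme of tetrahydrobiopterin synthesis, from 3.37 and 2.67 to 14.9 and 15.1 (2.00 ± 0.20), and Ass1, argininosuccinate synthase, from 0.350 and 0.324 to 4.23 and 3.10 (1.79 ± 0.14). The groups did not overlap in any of these 6 genes, as in 85.1% of all genes.

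**Figure D3:**
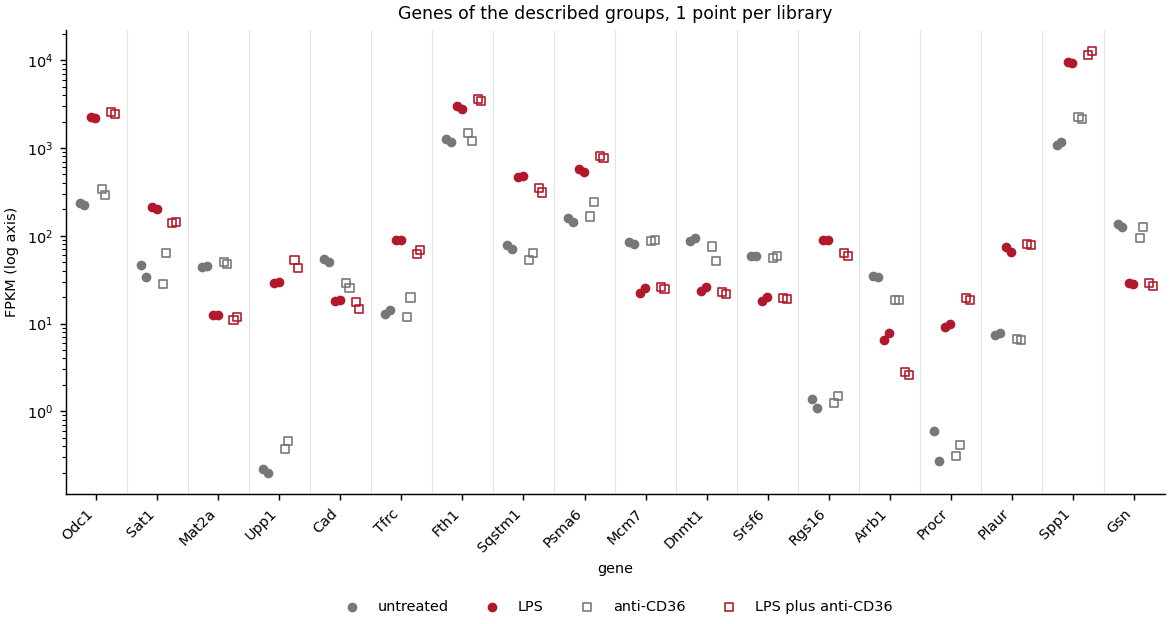
FPKM (log axis) of 18 genes from the groups described, 1 point per library, circles without and squares with anti-CD36, grey without and red with LPS. Odc1, Tfrc, Sqstm1 and Spp1 are higher in every LPS-treated library than in any library without LPS, and Mcm7, Mat2a, Srsf6 and Gsn are lower.

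Single carriers of amino acids changed in both directions. Slc15a3, a lysosomal carrier of histidine and small peptides, went from 5.84 and 5.82 to 113 and 119 (4.10 ± 0.12, adjusted p = 6.4e-07). Slc43a2, a carrier of large neutral amino acids, went from 13.4 and 13.6 to 1.66 and 2.01 (-2.36 ± 0.12, adjusted p = 9.5e-06). The cystine and glutamate exchanger Slc7a11 and its heavy chain Slc3a2 rose (1.28 and 0.76). Of 21 amino acid carriers, 6 were higher and 6 lower, a balance that changed with scaling (median -0.05, 7 and 5 with size factors, 6 and 9 with mitochondrial genes left out). Carriers of sugars, nucleosides and monocarboxylates were lower in 10 of 15 and higher in 1 (median -0.56, 7 and 1 with size factors, and falls of 6 without untreated replicate 1 and 6 without LPS replicate 1). Slc45a4 (-1.79) and the nucleoside carriers Slc29a1 (-0.81) and Slc29a3 (-1.005) were among them.

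Of 27 metal handling genes, 15 rose and 6 fell (median 0.36, 16 and 3 with size factors, rises of 9 without untreated replicate 2 and 9 without LPS replicate 2, and falls of 3 without untreated replicate 1 or LPS replicate 1). Tfrc, the transferrin receptor for iron uptake, went from 12.97 and 14.4 to 88.7 and 89.4 (2.62 ± 0.21, adjusted p = 7.1e-05). Fth1, the ferritin heavy chain that stores iron, went from 1255 and 1167 to 2971 and 2766 (1.24 ± 0.21, adjusted p = 0.0018), so the uptake and the storage gene rose together. Cp, the copper oxidase ceruloplasmin, went from 2.62 and 3.46 to 25.3 and 27.04 (2.76 ± 0.14, adjusted p = 1.1e-05), and Slc31a2, a copper transporter of the low-affinity kind, from 5.38 and 4.73 to 30.4 and 30.4 (2.38 ± 0.24, adjusted p = 0.00018). Steap3, a ferrireductase of endosomes, fell (-1.42 ± 0.11), and the zinc exporter Slc30a4 rose (1.28 ± 0.15).

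Mitochondrially encoded transcripts of complex I were lower with LPS in 5 of 7 genes. Of the nuclear-encoded respiratory chain, 3 of 39 were higher and 3 lower (median 0.19, 7 and 1 with size factors, 1 and 6 with mitochondrial genes left out). The rises of that list numbered 1 without untreated replicate 2 or LPS replicate 1 and 11 without anti-CD36 replicate 1 or 2, and the falls 0 without untreated replicate 1 or LPS replicate 1 or 2 and 6 without anti-CD36 replicate 1 or 2. Among the 13 mitochondrially encoded transcripts, a contrast chosen after their values were seen, 5 of 7 complex I genes and cytochrome b were called lower and no cytochrome oxidase gene was called in the fit of all 8 libraries. ND1 went from 1701 and 2319 to 506 and 617 (-1.83 ± 0.39, adjusted p = 0.006), and ND2 from 1222 and 1628 to 296 and 346 (-2.14 ± 0.50, adjusted p = 0.0086). Cytochrome b, CYTB, went from 1621 and 2148 to 600.1 and 674 (-1.55 ± 0.36, adjusted p = 0.0081). COX1 was at 6862 and 8980.3 untreated and 10398 and 9193 with LPS (0.32 ± 0.42, adjusted p = 0.55), and its groups lay close together. COX2 (0.39), COX3 (0.46) and ATP6 (0.28) were not called either, although COX2 was called higher with size factors (0.63) and with the compared groups alone, and COX3 without anti-CD36 replicate 1 (adjusted p = 0.034) or 2 (adjusted p = 0.033) and with the compared groups alone. ND3, ND4 and ND4L fell (-1.14, -1.12 and -1.81), and ND5 (-0.82) and ND6 (-0.93) were not called. The calls of ND4 and ND4L were lost with size factors and with a replicate block. They were also lost without untreated replicate 2, without either LPS replicate and without either LPS plus anti-CD36 replicate. The call of ND4 was lost without untreated replicate 1 too, and that of ND4L after quantile normalization. Without anti-CD36 replicate 1 or 2, with the compared groups alone and after quantile normalization, ND5 and ND6 were called lower too. With either of these replicates left out, the adjusted p was 0.0044 for ND5 and 0.015 for ND6.

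Within a library the summed FPKM of complex I transcripts over that of oxidase transcripts was 0.677 and 0.728 untreated and 0.180 and 0.235 with LPS. The ratio was 0.943 and 0.785 with anti-CD36 and 0.244 and 0.249 with both, so each LPS-treated library was below each library without LPS. The calls of ND2 and CYTB were lost without untreated replicate 2 or LPS replicate 1, and that of ND1 without LPS replicate 1. The ratios do not depend on the scaling of a library. Nuclear copies of these genes and overlap on the mitochondrial genome make the single values uncertain, since the counting rule is not known.

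**Figure D4:**
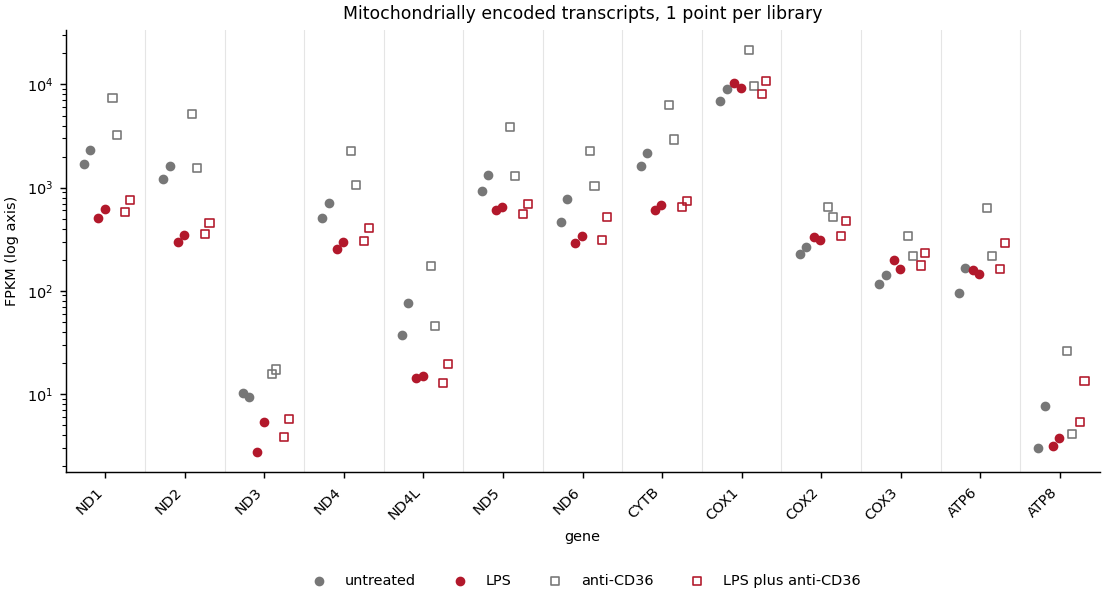
FPKM (log axis) of the 13 mitochondrially encoded transcripts, 1 point per library, circles without and squares with anti-CD36, grey without and red with LPS. ND1, ND2 and CYTB are lower in every red point than in any grey point, and COX1 to COX3 overlap.

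TCA cycle and pyruvate entry genes were lower in 16 of 34 and higher in 2 (median -0.32, 10 and 4 with size factors, and falls of 9 without LPS replicate 1). Pcx, pyruvate carboxylase, went from 6.32 and 5.79 to 1.36 and 1.22 (-1.62 ± 0.10, adjusted p = 1.9e-05), Pdk1, a kinase that shuts pyruvate dehydrogenase, from 28.3 and 29.4 to 9.24 and 10.1 (-1.49 ± 0.12), and the malic enzyme Me2 from 58.8 and 55.5 to 20.05 and 21.7 (-1.41 ± 0.12). Dld, the dihydrolipoamide dehydrogenase shared by the 2-oxoacid dehydrogenases, rose from 30.7 and 31.4 to 70.8 and 73.1 (1.19 ± 0.17, adjusted p = 0.001). Of 15 genes of the pentose phosphate pathway and NADPH supply, 3 rose and 5 fell, among the falls Pgd (-0.98), Tkt (-0.89) and H6pd (-1.45), and the counts were even with size factors (median -0.21, 4 and 4). The rises of the pentose list numbered 0 without LPS replicate 2 and 1 without untreated replicate 1 or 2 or LPS replicate 1, and its falls were close to the 37.5% of all genes. Of 16 genes of NAD metabolism, 4 rose and 2 fell (median 0.09, 6 and 2 with size factors), and with mitochondrial genes left out 0 rose and 2 fell. The NAD rises numbered 0 without untreated replicate 1 or LPS replicate 2, 1 without LPS replicate 1 and 2 without untreated replicate 2 or LPS plus anti-CD36 replicate 1 or 2.

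Glycerolipid and phospholipid genes were lower in 22 of 39 and higher in 9 (median -0.44, 12 and 10 with size factors). The falls numbered 14 without untreated replicate 1, 12 without LPS replicate 1 and 14 without LPS replicate 2. Lpl, lipoprotein lipase, went against the majority, from 25.2 and 31.3 to 128 and 123 (2.12 ± 0.17, adjusted p = 6e-05). The phosphatidate phosphatases Lpin1 (-1.60) and Lpin2 (-1.36), the acyltransferase Mboat1 (-1.60) and the lysophospholipase Pnpla7 (-1.32) fell. In sphingolipid metabolism 4 of 28 rose and 10 fell, close to the 17.0% and 37.5% of all genes, a balance that turned with size factors (median -0.09, 8 and 7), and the falls numbered 6 without LPS replicate 1 and the rises 2 without untreated replicate 2 or LPS replicate 2 and 7 without anti-CD36 replicate 1 or 2. Cerk, ceramide kinase, fell (-1.64), and the ceramide synthase Cers6 rose (0.77).

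Cytoskeletal genes changed in opposite directions within one class. Of 53 actin and motor genes 14 rose and 13 fell (median 0.05, 20 and 10 with size factors, 12 and 15 after quantile normalization), and the rises numbered 9 without untreated replicate 1, 9 without LPS replicate 1 and 9 without LPS replicate 2. Marcksl1, an actin and membrane adaptor, went from 137 and 126 to 756 and 717 (2.48 ± 0.14, adjusted p = 1.3e-05), and Gsn, the severing protein gelsolin, from 135 and 125 to 29.0 and 28.2 (-2.14 ± 0.15, adjusted p = 3.8e-05). The class I myosin Myo1f fell (-1.79). Among guidance receptors and tetraspanins, 9 of 29 rose and 9 fell (median 0.08, 13 and 7 with size factors, 9 and 11 with mitochondrial genes left out, and rises of 5 without untreated replicate 2 and 5 without LPS replicate 1), including the semaphorin receptor Plxnd1 (-1.79), Tspan14 (-1.50) and, upward, the tetraspanin Cd53 (1.70) and the hyaluronan receptor Cd44 (1.33).

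Autophagy genes were lower in 16 of 40 and higher in 7, shares close to the 37.5% and 17.0% of all genes (median -0.20, 11 and 10 with size factors). The receptor Sqstm1, which brings ubiquitinated cargo to the autophagosome, rose from 77.4 and 69.7 to 464 and 481 (2.67 ± 0.14, adjusted p = 1.2e-05). Atg9b, a membrane protein of early autophagosomes, went from 10.5 and 12.6 to 2.20 and 2.22 (-1.96 ± 0.12, adjusted p = 1.8e-05), and Wipi1 (-1.12) and the initiating kinase Ulk1 (-0.85) fell. Of 49 Rab and fusion genes 12 rose and 17 fell, the latter close to the 37.5% of all genes, and the order turned with size factors (median -0.08, 18 and 12), the falls numbering 9 without LPS replicate 1 and the rises 7 without LPS replicate 2. Rab20 (1.81) rose, and Rab32 (-1.06) and Rab35 (-1.16) fell. Among E3 ligases and deubiquitinases 14 of 41 rose and 10 fell (median -0.06). Rises and falls numbered 17 and 8 with size factors and 11 and 15 with mitochondrial genes left out. The rises included Usp18 (1.93), which removes ISG15, Rnf19b (1.77) and Trim25 (1.63).

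Genes of ribosome biogenesis (8 of 32 higher, 5 lower), tRNA charging (8 of 20 higher, 3 lower), initiation and elongation (6 of 30 higher, 9 lower), secretory entry (7 of 34 higher, 5 lower) and the mitochondrial ribosome and import (6 of 35 higher, 4 lower) had no direction that held under every scaling. With 1 untreated or 1 LPS library left out, ribosome biogenesis had 0 or 1 rises, tRNA charging 3 or 4 and secretory entry 2 or 3, and the mitochondrial list had 3 without untreated replicate 2 or LPS replicate 2. Ribosome biogenesis had 5 without LPS plus anti-CD36 replicate 1 or 2. The rises in initiation and elongation numbered 3 without untreated replicate 1 or LPS replicate 1 and 11 without anti-CD36 replicate 1 or 2. Falls in ribosome biogenesis numbered 3 without any 1 untreated or LPS library and 8 without anti-CD36 replicate 1 or 2. Falls in tRNA charging numbered 1 without untreated replicate 1 or LPS replicate 2 and 6 without anti-CD36 replicate 1 or 2. In secretory entry the falls numbered 1 without any 1 untreated or LPS library, 3 without LPS plus anti-CD36 replicate 1 or 2 and 8 without anti-CD36 replicate 1 or 2. In the mitochondrial list they numbered 2 without LPS replicate 1 and 7 without anti-CD36 replicate 1 or 2. With size factors the lists had 13 higher and 3 lower, 9 and 1, 11 and 7, 10 and 1, and 11 and 2 in that order. With mitochondrial genes left out the lists had 2 higher and 11 lower, 5 and 6, 4 and 12, 4 and 11, and 4 and 9. Single genes with clear values were the initiation scaffold Eif4g1, from 165 and 179 to 77.5 and 78.1 (-1.13 ± 0.13, adjusted p = 0.00033), the eIF4E-binding repressor Eif4ebp2 (-1.48), the ribosomal gene factor Ubtf (-1.31) and, upward, the arginyl-tRNA synthetase Rars (0.97) and the initiation subunit Eif2s2 (1.07).

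Of 29 G protein-coupled receptors, 14 rose and 10 fell (median 0.21, 15 and 10 with size factors). Hcar2, the receptor for niacin and hydroxybutyrate, went from 2.09 and 2.23 to 40.8 and 45.3 (3.80 ± 0.22, adjusted p = 1.8e-05), Ccrl2, a non-signalling chemerin receptor, from 1.31 and 1.15 to 15.8 and 17.3 (2.98 ± 0.10), and the adenosine receptor Adora2b from 2.38 and 2.07 to 14.15 and 14.15 (2.23 ± 0.13). Cx3cr1, the fractalkine receptor, fell (-2.05 ± 0.18). Downstream of the receptors, 19 of 42 genes fell and 9 rose (median -0.23, 13 and 9 with size factors, and falls of 12 without LPS replicate 1). Besides Rgs16, given above, Rgs1 of the same family rose from 1.17 and 1.52 to 25.9 and 22.2 (3.42 ± 0.13, adjusted p = 2.7e-06). Arrb1, the beta-arrestin that ends receptor signalling, went from 34.5 and 33.8 to 6.44 and 7.79 (-2.12 ± 0.11, adjusted p = 1.2e-05). A pair of cyclic AMP phosphodiesterases moved in opposite directions, Pde4b going from 0.982 and 1.08 to 4.65 and 4.803 (1.496 ± 0.13, adjusted p = 8.6e-05) and Pde4a from 7.17 and 8.01 to 1.46 and 1.76 (-1.72 ± 0.19, adjusted p = 0.00025).

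PI3K and mTOR genes were lower in 23 of 41 and higher in 3 (median -0.45, 17 and 8 with size factors, falls of 14 without LPS replicate 1, and rises of 5 without anti-CD36 replicate 1 or 2). Pik3r2, a regulatory subunit, went from 25.4 and 25.4 to 5.68 and 7.08 (-1.84 ± 0.14, adjusted p = 4.9e-05), Akt1 from 91.7 and 88.6 to 42.8 and 44.4 (-1.03 ± 0.11), and Deptor, an inhibitor of mTOR, from 1.91 and 2.53 to 0.0862 and 0.0798 (-1.57 ± 0.11). Pik3ap1, the adaptor that recruits PI3K to Toll-like receptors, rose (1.23 ± 0.13). TGF-beta, Notch and Wnt genes were lower in 16 of 38, close to the 37.5% of all genes, and higher in 4 (median -0.22, 15 and 6 with size factors), with a pair of Wnt receptors moving in opposite directions, Fzd7 falling from 14.3 and 14.5 to 3.40 and 3.27 (-1.83 ± 0.10) and Fzd5 rising from 0.457 and 0.549 to 3.02 and 2.47 (1.31 ± 0.10). Tgfbr2 (-1.19) and beta-catenin, Ctnnb1 (-1.07), fell.

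Transcription factors outside the NF-kB and IRF pathways changed in several families. Of 16 clock and clock-output genes, 9 fell and 2 rose (median -0.56, 9 and 5 with size factors). Ciart, a repressor of clock transcription, went from 10.7 and 11.5 to 1.39 and 1.75 (-2.24 ± 0.13, adjusted p = 1.6e-05), Bhlhe40 from 17.6 and 19.4 to 3.84 and 4.85 (-1.87 ± 0.25) and its relative Bhlhe41 from 12.7 and 14.5 to 4.22 and 4.46 (-1.45 ± 0.11). Nfil3, a basic leucine zipper repressor, rose (1.12 ± 0.11), and Dbp, an activator of the same sites, fell (-0.98 ± 0.10). Nuclear receptors and coregulators were lower in 14 of 28 and higher in 4 (median -0.54, 10 and 5 with size factors, and falls of 9 without untreated replicate 2 and 7 without LPS replicate 1). The NR4A orphan receptors rose together, Nr4a1 from 1.70 and 1.55 to 14.05 and 18.1 (2.69 ± 0.18, adjusted p = 2.7e-05), Nr4a3 from 0.0270 and 0.0512 to 5.77 and 6.81 (2.81 ± 0.10, adjusted p = 2.3e-06) and Nr4a2 from 0.854 and 0.941 to 3.85 and 4.02 (1.38 ± 0.17), while the retinoic acid receptors Rara (-1.63) and Rarb (-1.35) fell.

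Of 41 lineage factors, 11 rose and 18 fell (median -0.16, 13 and 12 with size factors). Batf, an AP-1 partner of IRF factors, went from 0.307 and 0.198 to 5.76 and 5.61 (2.42 ± 0.09, adjusted p = 2.8e-06), and Irf8 from 18.1 and 16.9 to 56.5 and 60.8 (1.69 ± 0.12, adjusted p = 3.8e-05). Id1, an inhibitor of basic helix-loop-helix factors, was at 3.13 and 1.90 untreated and 40.1 and 23.8 with LPS (3.21 ± 0.27, adjusted p = 8.7e-05), with the replicates of each group well apart but the groups not overlapping. Klf2, a factor that restrains activation of myeloid and endothelial cells, went from 6.97 and 6.98 to 0.855 and 1.05 (-2.03 ± 0.12, adjusted p = 1.7e-05), and Fli1, an ETS factor, fell (-1.42 ± 0.20).

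Genes of secreted and surface proteins outside the cytokines were called higher more often than lower in 4 lists, except that proteases and inhibitors were even with mitochondrial genes left out. Of 14 coagulation and fibrinolysis genes, 9 rose and 2 fell (median 0.61, 10 and 1 with size factors). Plaur, the receptor of the urokinase activator, went from 7.34 and 7.87 to 74.5 and 66.1 (3.05 ± 0.11, adjusted p = 1.9e-06), and Procr, the endothelial protein C receptor, from 0.593 and 0.275 to 9.07 and 9.76 (2.87 ± 0.13, adjusted p = 6.2e-06). The intracellular inhibitor Serpinb8 went from 9.67 and 8.996 to 1.29 and 0.974 (-2.28 ± 0.15, adjusted p = 2.4e-05). Plaur and Procr were thus higher, and Serpinb8 lower, in both LPS libraries. Of 10 complement genes 6 rose and 1 fell (median 0.58, 7 and 0 with size factors). Cfp, the alternative pathway stabilizer properdin (1.601 ± 0.22), the anaphylatoxin receptors C5ar1 (1.48 ± 0.21) and C3ar1 (1.38 ± 0.12) and the membrane inhibitor Cd59a (1.55 ± 0.11) rose.

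Proteases and inhibitors rose in 11 of 24 and fell in 6 (median 0.28, 14 and 6 with size factors). The counts were 7 and 7 with mitochondrial genes left out, and rises numbered 7 without untreated replicate 1 and 7 without LPS replicate 2. Against the rises of Slpi, Timp1 and Mmp9, the lysosomal proteases Lgmn, from 187 and 199 to 70.7 and 69.9 (-1.44 ± 0.16, adjusted p = 0.00028), Ctsh (-1.56) and Ctse (-1.45) fell. Of 18 growth factors and matrix proteins, 9 rose and 4 fell (median 0.23, 9 and 4 with size factors). Spp1, the matrix protein osteopontin, was at 1090.4 and 1172 untreated and 9628 and 9249 with LPS (3.06 ± 0.22, adjusted p = 4.2e-05), among the highest levels of any gene in the LPS libraries. Pdgfb went from 5.52 and 6.32 to 40.8 and 51.3 (2.76 ± 0.16, adjusted p = 1.6e-05), Hbegf from 0.104 and 0.0981 to 4.34 and 3.67 (2.18 ± 0.10) and the neurosecretory protein Vgf from 0.169 and 0.239 to 5.07 and 4.93 (2.32 ± 0.11). Vegfb, a growth factor of endothelial cells, fell from 38.6 and 39.1 to 15.6 and 14.3 (-1.32 ± 0.16, adjusted p = 0.00044).

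Of 36 genes of the BCL2 family and death receptors, 15 rose and 11 fell (median 0.16, 18 and 8 with size factors, 12 and 13 with mitochondrial genes left out). Bcl2l1, which encodes the survival protein BCL-xL, went from 13.3 and 12.6 to 68.7 and 69.6 (2.33 ± 0.10, adjusted p = 5.5e-06). Tnfrsf1b, the second TNF receptor, went from 9.37 and 9.18 to 102 and 111 (3.39 ± 0.13, adjusted p = 2.3e-06), and the death receptor Fas from 0.139 and 0.257 to 5.43 and 5.02 (2.38 ± 0.12, adjusted p = 8.8e-06). Bcl2l1 and Fas, a survival gene and a death receptor, were therefore higher in the same libraries. The list moved both ways, with 11 falls and differences from -2.10 to 4.42. The highest value is that of Bcl2a1a, which is uncertain as said above. The caspase inhibitor Birc3 rose too (1.33 ± 0.12).

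Markers were read for the labelled cell type and for other cells that a culture could hold. Of 15 macrophage markers 13 were tested, 5 rose and 3 fell (5 and 2 with size factors, 5 and 6 after quantile normalization). Siglec1 went from 1.71 and 1.98 to 24.0 and 21.8 (3.07 ± 0.13, adjusted p = 5.4e-06), Adgre1 from 13.8 and 12.2 to 82.8 and 84.1 (2.59 ± 0.15, adjusted p = 1.7e-05) and Cd14, the LPS co-receptor, from 534 and 459.9 to 1435 and 1592 (1.61 ± 0.20, adjusted p = 0.00045), with Itgam (0.91) and Aif1 (1.19) also higher. Trem2, a lipid-sensing receptor, went from 28.3 and 23.4 to 5.20 and 4.52 (-2.19 ± 0.26, adjusted p = 0.00038) and Csf1r, the receptor of the macrophage growth factor, from 311 and 306 to 102 and 104 (-1.57 ± 0.12, adjusted p = 4.6e-05). Spi1, which encodes PU.1, was called lower (-0.58 ± 0.18), a call lost with size factors and when any 1 of the 4 libraries was left out. The remaining tested markers were Lyz2 (-0.19), Cd68 (-0.67), Lgals3 (-0.24), Tyrobp (-0.09) and Fcgr1 (-0.24), which were not called. Cd68 was called lower without either or both anti-CD36 libraries, with the compared groups alone, without the trend and with limma-voom. With mitochondrial genes left out Cd68 was called lower too. After quantile normalization Cd68, Lgals3 and Tyrobp were called lower. In bulk RNA, fewer cells of a kind and less RNA per cell cannot be told apart.

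Of 59 markers of other cells, 7 were tested. None of 13 fibroblast, epithelial and endothelial markers was in the table. The table had no value at 0 and held only 13 of 15 macrophage markers. Absence from it therefore does not show that a gene was silent. Ighm, the immunoglobulin heavy chain, was at 87.4 and 84.6 untreated and 75.5 and 77.5 with LPS and was not called. Lck, a kinase of T cells (2.00 and 1.89 to 4.21 and 4.32), Cd79b, a B cell receptor chain (0.0753 and 0.107 to 0.774 and 1.17), and Fscn1, an actin bundler of mature dendritic cells (0.0537 and 0.0741 to 1.54 and 1.69), were called higher, Cd79b and Fscn1 from untreated values under 1. Csf3r, Ighd and Cd74 were not called. However, Csf3r was called lower without anti-CD36 replicate 1 or 2 and, like Ighd, with the compared groups alone. Cd74 was called lower after quantile normalization. The part of other cells in the results was not tested.

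The same LPS contrast in antibody-treated cells used 4 other libraries. LPS plus anti-CD36 against anti-CD36 gave 4844 called genes (47.1%), 1580 higher (15.4%) and 3264 lower (31.7%). Of the genes called with LPS alone, 4028 were called in the same direction with the antibody, which is 71.7% of the first list and 83.2% of the second, and 10 were called in the opposite direction. Across genes the 2 differences correlated at r = 0.926, and genes are not independent replicates. Of 1712 changes of at least 1, 1598 were called in the same direction with the antibody.

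**Figure D5:**
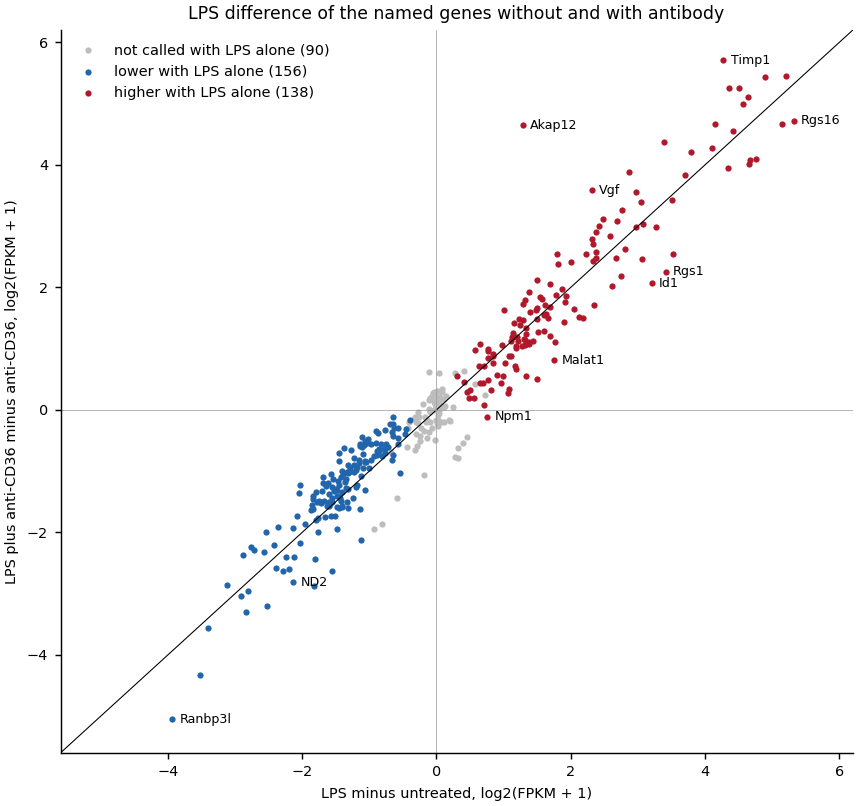
LPS difference without (x axis) and with anti-CD36 (y axis) for 384 genes, those the naming rule gave plus the mitochondrially encoded ones and Akap12, on the log2(FPKM + 1) scale, with the line of equal differences. Most points lie along the line, and Akap12 stands above it at 1.29 without and 4.65 with the antibody.

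Of 43 lists, 38 had more calls on the same side with the antibody as without it, 4 that were even without it had a side with it, and the mitochondrial ribosome and import turned from 6 higher and 4 lower to 3 and 5. DNA replication had 37 of 40 lower, the standard proteasome 12 of 36 higher, splicing 28 of 53 lower and metal handling 16 of 27 higher. Odc1 went from 339 and 294 with anti-CD36 to 2584 and 2415 with both (2.98 ± 0.16, adjusted p = 1.3e-05), and Mcm7 from 87.3 and 90.2 to 26.1 and 24.8 (-1.76 ± 0.11, adjusted p = 2.4e-05). These genes therefore changed in the same direction in both pairs of groups.

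The difference between the 2 LPS effects was called in 1 gene of 10289 (0.00972%), with 1396 at an unadjusted p under 0.05. That gene was Akap12, which anchors kinases such as protein kinase A, at 0.139 and 0.292 untreated, 1.95 and 1.98 with LPS, 0.152 and 0.0932 with anti-CD36 and 25.7 and 28.8 with both. A missing call does not show that the LPS effects were equal, since the anti-CD36 replicates differed most and 615 and 237 genes were called without replicate 1 or 2 of that group. With anti-CD36, mitochondrial genes held 15.7% of FPKM in replicate 1 and 6.59% in replicate 2, against 3.28% to 6.62% in the other 6 libraries, and their part in this count was not tested.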

How the data were processed

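The authors deposited 1 table of FPKM values, with 1 column per library and 10639 genes by symbol, none at 0. Genes with a value of 0 in some library may have been left out of it. The largest changes are therefore those among the genes it holds. Per the submitters' processing notes, HISAT2 2.0.5 was used. The notes name the builds mm10 and hg38 with no role for either. Of the 10639 genes, 10366 matched a mouse GENCODE M21 symbol, and mouse exon lengths gave whole reads for most low values, as described below. The role of hg38 is not settled by the sources used here. The read counter, gene annotation and strand use are not given in the sources used here, so near-identical and overlapping genes are uncertain. The 4 groups of 2 libraries follow the labels.

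From the deposited FPKM, log2(FPKM + 1) was fitted with limma 3.58.1 in R 4.3.3, with 4 group means over all 8 libraries (4 residual and 3.46 prior degrees of freedom, trend on mean expression). The script was tested on simulated data. Depth was recovered by finding, per library, the total at which low values (under 30 reads) are whole reads within 0.05, which 88.8% to 95.0% were, with GENCODE M21 exon lengths matched to 10366 genes. It gave 48000000 to 71700000 reads per library. A floor of 3 reads in 2000 bp equals an FPKM of 0.0209 to 0.0313 and covers counting error only.

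Named genes were the 15 largest called rises and falls with groups that did not overlap and a mean FPKM of at least 5, outside the usual inflammatory genes, up to 6 called members of each of 49 lists with the largest difference, up to 2 uncalled members with a mean FPKM of at least 20, and all tested markers. A few genes and 1 list that the rule gave are not reported here. Genes and lists were chosen with earlier results of these data known. The alternatives were other scalings (quantile, size factors, mitochondrial genes left out), pseudocounts (0.1, 5) and filters (none, or a mean FPKM of 5 or more), a minimum difference of 1, a fit without the trend, one on the compared groups alone, one with a replicate block, and fits leaving out 1 library each. Where mitochondrial genes were left out, each library was also scaled to the same total of the remaining FPKM. Added after seeing the data were limma-voom on the recovered reads of 10034 genes and a fit without both anti-CD36 libraries.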

Additional observations from a re-analysis of the deposited data

Results flagged for a closer look

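The LPS effect on Akap12 differed between cells with and without anti-CD36. The log2 difference with LPS was 1.29 without the antibody and 4.65 with it, and the effect with the antibody minus that without it was 3.36 (limma interaction term, adjusted p = 0.00051). All 4 LPS-treated libraries were above all 4 libraries without LPS. The call was lost with a pseudocount of 0.1 (adjusted p = 0.0547) and with limma-voom on recovered reads (adjusted p = 0.115), and the untreated libraries held 50 and 135 reads of the gene.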

How the results depend on the processing

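With LPS, 5614 genes were called, 1712 with a difference of at least 1, 3665 with a mean FPKM of at least 5 (fewer genes tested), and 3598 to 7091 when 1 library was left out. The lowest count was without LPS replicate 1 and the highest without anti-CD36 replicate 1. With the antibody, 4844 were called, 1391 with a difference of at least 1, 3098 with a mean FPKM of at least 5, and 3216 to 6381 with 1 library left out, the lowest without LPS plus anti-CD36 replicate 1. Counts of the difference between the LPS effects were 1, 0 with a pseudocount of 0.1 (limma, 1301 at an unadjusted p under 0.05), 0 with limma-voom (1282), 6 with a pseudocount of 5 and 1 to 615 with 1 library left out. The cause of these shifts was not tested. Limma-voom on recovered reads called 5598 genes with LPS, 1740 higher and 3858 lower.

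The replicate numbers were not taken to pair the samples. Deviations of the same-numbered libraries correlated at 0.209 between untreated and LPS and from -0.645 to 0.53 between the other groups. With 2 libraries a group these correlations cannot show whether the libraries were paired. With a replicate block 5298 genes were called with LPS and 4443 with the antibody, and 1 for the difference.

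Of the 205 genes named with LPS values, no call changed sign, and 6 lost the call in at least 1 setting (ND1, ND2, ND4, ND4L, CYTB and Spi1), 3 of them with size factors, 2 with a replicate block and 6 without LPS replicate 1. A further 11 that were not called passed the threshold in at least 1 setting. Of 43 lists, 25 kept the side with more calls under all 4 scalings, 8 mostly higher and 17 mostly lower, and 18 did not. With 2 libraries a group, the spread is estimated from few values, and the shared estimate includes the anti-CD36 libraries, which lay farthest apart.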
